A study of Mus musculus with 4 samples.

Results

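The Notch genes described here are 10 members of 1 signalling family, the receptors Notch1, Notch2, Notch3 and Notch4, the ligands Jag1, Jag2 and Dll4, and the target genes Hey1, Hey2 and Heyl. They were found by gene name among the non-control spots of 4 Agilent 2-colour arrays, and all 10 of 28309 genes on the array were present. The RNA came from primary smooth muscle cells of the aorta of mice of the strain labelled C57LB/6, cultured in DMEM/F-12 with 10% FBS and used between passage 4 and passage 10. One genotype had both copies of Atg7 flanked by loxP sites (Atg7F/F SM22α-Cre+) and the other had the normal gene (Atg7+/+ SM22α-Cre+), so Cre recombinase, driven by the promoter of the smooth muscle gene SM22α, was present in both. Atg7 encodes an enzyme needed to form autophagosomes, and the comparison asks which transcripts differ between cells with and without the intact gene. Each genotype had 2 biological replicates, and each Atg7F/F extract was hybridised against the Atg7+/+ extract of the same number on 2 arrays with the dyes exchanged. The labels give neither the age nor the sex of the animals, nor whether a replicate pooled several of them.

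Notch receptors are single-pass membrane proteins that are cleaved when a neighbouring cell presents a Jagged or Delta-like ligand. The released intracellular part enters the nucleus, binds the DNA-binding protein RBPJ and switches on target genes, among them the HEY and HES families of transcriptional repressors. In arteries, Notch3 is the receptor most characteristic of smooth muscle, Jag1 on endothelium and on smooth muscle itself is a ligand for it, and Notch4 and Dll4 are best known from endothelial cells.

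Ratios below are log2 ratios of Atg7F/F over Atg7+/+, given as the mean of 2 replicates ± SD (n = 2), where each replicate is the average of its 2 dye-swapped arrays. Levels are log2 signals of 1 channel after normalization, comparable between extracts for the same spot but not between genes. In every channel of the 4 arrays, 43.3% to 45.5% of spots were well above background, and 0 were saturated. The targeted gene Atg7 had ratios below 0 on all 4 arrays by its 1 measurable probe, at -1.22 ± 0.07 (limma adjusted p 0.938). Its levels were 7.06 and 6.94 in the Atg7F/F extracts and 8.23 and 8.20 in the Atg7+/+ extracts. Whether that probe lies in the floxed part is not given in the sources used here. All 10 listed markers of smooth muscle were above background.

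Across the family, the 2 replicates disagreed. Of the 10 genes, 8 were bright enough to test, and in all 8 the ratio had one sign in replicate 1 and the other in replicate 2, where 54.5% of the 12367 genes tested had opposite signs. Accordingly 0 of the 8 were higher on all 4 arrays and 0 were lower on all 4, beside 10.6% and 9.95% of all genes. The signs are those of the brightest probe of each gene, averaged over the dyes. A dimmer Notch2 probe was below 0 in both replicates, at -0.02 and -0.17. In replicate 1 the 2 dyes differed in sign for Notch4, Dll4 and Hey2, so their sign there is not settled. Notch3, Hey1, Hey2 and Heyl were each more than 2-fold higher in the Atg7F/F extract of replicate 2, a size that 0.889% of all genes reached in that replicate. In replicate 1 none of the 8 was 2-fold higher, beside 0.509% of all genes. Of the 8, limma called 0 at an adjusted p below 0.05, beside 0% of all genes, and 0 had an unadjusted p below 0.05, beside 2.98%. Without replicate 2 the ratios of Notch3, Notch4, Dll4, Hey1, Hey2 and Heyl change sign, and without replicate 1 those of Notch2 and Jag1 do. With 2 replicates an exact sign-flip permutation test cannot give a two-sided p below 0.5.

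**Figure D1:**
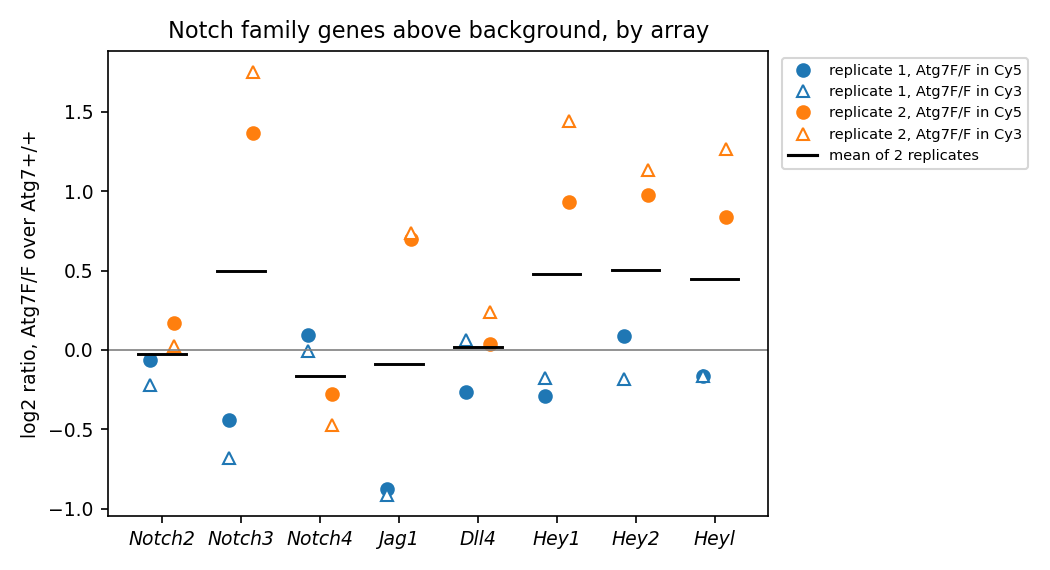
Log2 ratio of Atg7F/F over Atg7+/+ (vertical axis) for the 8 Notch genes above background, with 1 point per array. Blue is replicate 1, orange is replicate 2, filled circles have Atg7F/F in Cy5 and open triangles in Cy3, and the black line is the mean of the 2 replicates. The orange points of Notch3, at 1.36 and 1.75, lie above its blue points, at -0.44 and -0.68, and the 3 Hey genes show the same arrangement.

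Among the receptors, Notch3 differed most between the replicates. Its raw spot brightness in replicate 1 was 315 in Atg7F/F (Cy5) against 298 in Atg7+/+ (Cy3) on one array and 212 (Cy3) against 467 (Cy5) on the other. In replicate 2 it was 690 in Atg7F/F (Cy5) against 159 in Atg7+/+ (Cy3) and 505 (Cy3) against 215 (Cy5). Replicate 2 thus had a brighter Atg7F/F channel with either dye, while in replicate 1 the Cy5 channel was the brighter one on both arrays. Local background beside the spot was 79 to 84 in Cy5 and 44 to 46 in Cy3, and raw brightness includes it. After background correction and normalization Atg7+/+ was the higher in replicate 1 with either dye, at ratios of -0.44 and -0.68. After normalization the levels were 8.01 in the Atg7F/F extract and 8.57 in the Atg7+/+ extract of replicate 1. In replicate 2 they were 9.35 and 7.79, so the 2 genotypes overlap, with the Atg7F/F extracts at the highest and second lowest level. The ratios were -0.56 in replicate 1 (1.47-fold lower) and 1.56 in replicate 2 (2.94-fold higher). Only 0.234% of all genes had a higher ratio in replicate 2, and 0.388% had a larger gap between the replicates. The mean was 0.50 ± 1.50 (limma p 0.463, adjusted 0.9998). The size in replicate 2 was 3.57-fold with no offset added, and 4.83-fold with the processed signals in the scanner files, which differ in background correction and in dye normalization. The Notch3 spot lies on chromosome 17 at 32257848 to 32257907 of mm9, on the minus strand.

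Notch4, the receptor known mainly from endothelium, ran the other way. Its levels were 8.05 in Atg7F/F and 8.01 in Atg7+/+ of replicate 1, and 8.20 and 8.58 in replicate 2. The Atg7+/+ extract of replicate 2 was the highest, above the next by more than either dye pair differed. The ratios were 0.05 and -0.37, with a mean of -0.16 ± 0.30 (limma adjusted p 0.9998). Endothelial markers had their highest summed level in the same extract, as given further on.

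Notch2, a receptor expressed in many tissues, was close to equal in the genotypes. Its brightest probe had levels of 9.17 in Atg7F/F and 9.32 in Atg7+/+ of replicate 1, and of 8.95 and 8.86 in replicate 2. Both replicate 1 extracts were above both replicate 2 extracts, and the genotypes overlapped. The mean ratio was -0.02 ± 0.17 (limma adjusted p 0.9998), and its 2 dimmer probes gave -0.0089 and -0.09. Notch1, the receptor with the broadest developmental roles, was not well above background in any channel. Its 2 probes had a brightness of 51 to 57 in Cy3 and 80 to 91 in Cy5, close to the local background of 44 to 46 and 80 to 88, so no ratio is given.

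The ligand Jag1 had the widest spread between the Atg7+/+ extracts. Raw brightness in replicate 1 was 1377 in Atg7F/F against 1759 in Atg7+/+ and, with dyes exchanged, 922 against 2421. In replicate 2 it was 1013 against 494 and 779 against 646. On every array of replicate 1 Atg7+/+ was brighter, and on every array of replicate 2 Atg7F/F was. The Atg7F/F levels were nearly equal, at 10.09 and 9.95, while the Atg7+/+ levels were 10.99 and 9.23. Both Atg7F/F extracts thus lay between the 2 Atg7+/+ extracts. The ratios were -0.89 in replicate 1 (1.86-fold lower) and 0.72 in replicate 2 (1.64-fold higher). The dyes gave -0.88 and -0.91 in replicate 1 and 0.70 and 0.74 in replicate 2, so they differed far less than the replicates. Their mean was -0.09 ± 1.14, with an adjusted p of 0.9998 from limma. A ratio lower than that of replicate 1 occurred in 0.542% of all genes. The spot lies on chromosome 2 at 136907433 to 136907492 of mm9, and a second Jag1 probe at 136908942 to 136909001 was not above background on any array.

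Dll4, a Delta-like ligand of endothelial tip cells and arteries, was dim. Its raw brightness was 110 and 74 in Atg7F/F and 84 and 116 in Atg7+/+ of replicate 1, and 110 and 78 against 72 and 99 in replicate 2. The levels, 6.63 and 6.73 in Atg7F/F and 6.73 and 6.60 in Atg7+/+, overlapped, and the mean ratio was 0.02 ± 0.17 (limma adjusted p 0.9998). Jag2, the other Jagged ligand, was not well above background in any channel, with a brightness of 55 to 57 in Cy3 and 81 to 92 in Cy5.

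The target genes Hey1, Hey2 and Heyl encode repressors of the basic helix-loop-helix class that Notch signalling induces. Hey1 had levels of 8.26 in Atg7F/F and 8.49 in Atg7+/+ of replicate 1, and of 9.08 and 7.90 in replicate 2. Hey2 had 8.15 and 8.20 in replicate 1 and 8.87 and 7.82 in replicate 2. Heyl had 8.05 and 8.21 in replicate 1 and 8.70 and 7.64 in replicate 2. In each of the 3 the Atg7F/F extract of replicate 2 was the highest and the Atg7+/+ extract of that replicate the lowest. The replicate 1 extracts lay between them, and for Hey2 they could not be ordered, since the dye-swapped readings of 8.21 and 8.08 overlapped with those of 8.27 and 8.12.

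Raw brightness showed the same contrast with either dye. Hey1 in replicate 2 read 527 in Atg7F/F (Cy5) against 185 in Atg7+/+ (Cy3), and 452 (Cy3) against 235 (Cy5). Hey2 read 493 against 154 and 362 against 238, and Heyl 406 against 142 and 340 against 197. In every one of these pairs Atg7F/F was the brighter channel. In replicate 1 the Cy5 channel was brighter for all 3 genes whichever genotype it held, with Hey1 for example at 376 in Atg7F/F (Cy5) against 323 and at 254 in Atg7F/F (Cy3) against 393. Raw brightness includes the background, which was higher in Cy5. After background correction and normalization, Hey1 and Heyl had replicate 1 ratios below 0 with either dye, while Hey2 had 0.09 and -0.18.

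The replicate 2 ratios were 1.19 for Hey1 (2.27-fold), 1.05 for Hey2 (2.08-fold) and 1.05 for Heyl (2.07-fold). Those of replicate 1 were -0.24, -0.05 and -0.16. Between 0.606% and 0.817% of all genes had a higher ratio in replicate 2 than these 3. The means were 0.48 ± 1.00 for Hey1, 0.50 ± 0.78 for Hey2 and 0.45 ± 0.86 for Heyl, each smaller than its SD. Their unadjusted p from limma was 0.323, 0.210 and 0.289, and the adjusted p was 0.9998 for each. With the processed signals the values in replicate 2 were 3.22-fold, 3.14-fold and 3.30-fold. A second, dimmer Heyl probe gave -0.15 in replicate 1 and 0.44 in replicate 2, the same signs at a smaller size. The Hey1 spot lies on chromosome 3 at 8663432 to 8663491, the Hey2 spot on chromosome 10 at 30552729 to 30552788 and the main Heyl spot on chromosome 4 at 122926975 to 122927034 of mm9.

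By their mean levels, Notch3 and the 3 Hey genes ranked the 4 extracts alike, from Atg7F/F replicate 2 over Atg7+/+ replicate 1 and Atg7F/F replicate 1 down to Atg7+/+ replicate 2. This order was noticed in the data, is not independent between genes measured on the same extracts, and was found in 4.8% of all genes. Jag1 had a different order, led by the Atg7+/+ extract of replicate 1. By the brightest probes, the Atg7+/+ extract of replicate 2 was the lowest of the 4 for 7 of the 8 genes, all but Notch4. The share over all genes was 21.7%, and the count was likewise noticed in the data. For Notch2 it depends on the probe, since 1 dimmer probe had that extract highest, at 7.09, and the other had it lowest, at 6.56. For Dll4 the dye-swapped readings of that extract, 6.66 and 6.53, overlapped with those of Atg7F/F replicate 1, 6.57 and 6.69. Within Atg7+/+, replicate 2 minus replicate 1 was -0.78 for Notch3, -0.60 for Hey1, -0.38 for Hey2, -0.57 for Heyl and -1.75 for Jag1. Within Atg7F/F it was 1.34, 0.82, 0.73, 0.65 and -0.14 for the same genes. For the first 4 genes the replicates therefore moved in opposite directions in the 2 genotypes, and for each of them the gap within Atg7F/F exceeded the mean ratio between the genotypes. Extracts of different number were never on one array, so their levels are compared only through the normalization.

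**Figure D2:**
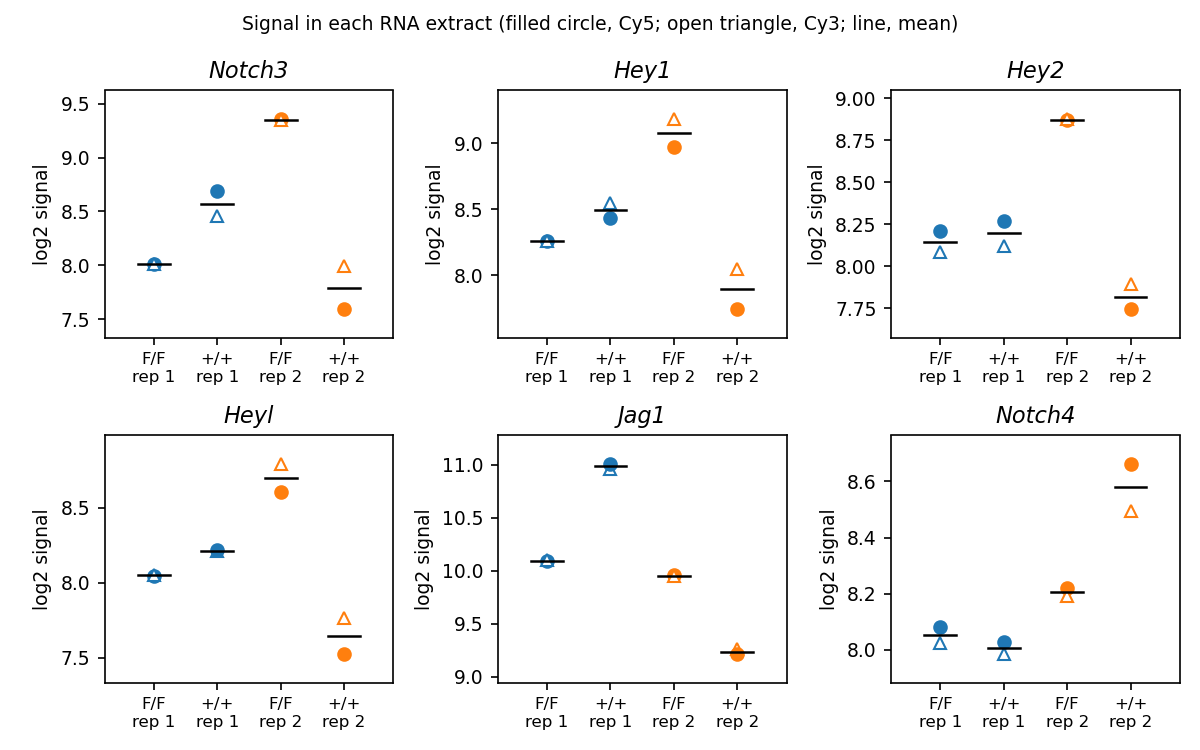
Log2 signal (vertical axis) of 6 Notch genes in the 4 RNA extracts (horizontal axis). Filled circles are Cy5 readings, open triangles Cy3 readings and the line their mean, with replicate 1 in blue and replicate 2 in orange. Notch3, Hey1, Hey2 and Heyl are highest in the Atg7F/F extract and lowest in the Atg7+/+ extract of replicate 2, Jag1 is highest in Atg7+/+ of replicate 1 at 10.99, and Notch4 is highest in Atg7+/+ of replicate 2 at 8.58.

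**Figure D3:**
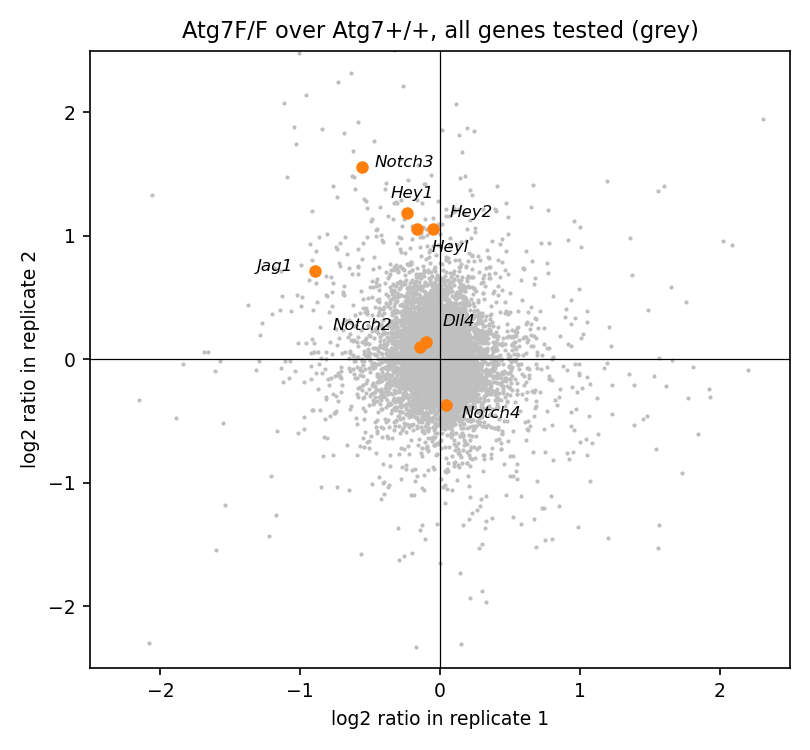
Log2 ratio in replicate 1 (horizontal axis) against that in replicate 2 (vertical axis) for the 12367 genes tested (grey) and the 8 Notch genes (orange), and 17 genes lie outside the axes. All 8 Notch genes are in the 2 quadrants where the replicates have opposite signs, with Notch3 at -0.56 and 1.56 and Jag1 at -0.89 and 0.72.

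Promoters were read from RefSeq on the GRCm38.p6 build for the 8 of the 10 members with an entry, that is, for all but Hey1 and Heyl. The motif searched was the RBPJ core TGGGAA on both strands (TTCCCA on the other). The window ran from 250 bases before to 50 after the start site. In this window 25.6% of 32851 promoters hold the core, and 6.38% hold the longer GTGGGAA. Of the 8 promoters searched, that of Hey2 alone had a match. It had 2, both with the longer form, at -207 to -202 on the opposite strand and at -3 to 3 across the start site. The HEY E-box CACGTG, in 7.15% of all promoters, was found in 0 of the 8. The promoters of Hey2 (chr10:30842781-30843033, minus strand), Notch3 (chr17:32166891-32167140, minus strand) and Jag1 (chr2:137116521-137116770, minus strand), 3 of the members that differed most between extracts, are shown 5′ to 3′ up to the start site, or to the end of the match that crosses it, with RBPJ cores in capitals.
Hey2: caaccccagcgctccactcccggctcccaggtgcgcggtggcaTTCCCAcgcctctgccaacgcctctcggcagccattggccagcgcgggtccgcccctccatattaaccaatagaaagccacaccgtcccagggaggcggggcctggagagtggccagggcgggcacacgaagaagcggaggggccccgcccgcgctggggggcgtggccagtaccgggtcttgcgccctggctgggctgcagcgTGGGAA
Notch3: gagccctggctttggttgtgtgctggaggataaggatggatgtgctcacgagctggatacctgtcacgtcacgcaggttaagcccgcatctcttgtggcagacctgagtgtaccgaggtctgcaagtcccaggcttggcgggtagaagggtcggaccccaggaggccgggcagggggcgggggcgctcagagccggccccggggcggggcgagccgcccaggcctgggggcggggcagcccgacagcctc
Jag1: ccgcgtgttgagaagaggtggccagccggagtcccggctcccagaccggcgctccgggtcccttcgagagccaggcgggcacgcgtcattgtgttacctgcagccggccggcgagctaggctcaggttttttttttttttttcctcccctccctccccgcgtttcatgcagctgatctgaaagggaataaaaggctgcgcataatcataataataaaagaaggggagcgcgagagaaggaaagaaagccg
A match of these letters is a description of the sequence. The whole windows had a GC content of 72.0% for Hey2, 70.0% for Notch3 and 55.7% for Jag1, against a median of 52.7% over all promoters.

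The other genes of the pathway are described by list. Among other ligands, 3 of 5 were bright enough to test, with a median ratio of -0.09, beside 0.0034 for all genes. That median was -0.21 with no offset and -0.28 with the processed signals. The non-canonical ligands Dlk2, Dner and Dlk1 had -0.19 ± 0.30, -0.09 ± 0.02 and -0.04 ± 0.32. Dner was dim and its sign followed the dye, at 0.05 and 0.02 with Atg7F/F in Cy5 and -0.21 and -0.22 in Cy3. Of 10 genes that cleave the receptor, 8 were tested, with a median of 0.02, 1 higher and 1 lower on all 4 arrays. The gamma-secretase subunit Ncstn had 0.14 ± 0.09, the convertase Furin 0.11 ± 0.05, the sheddase Adam17 -0.11 ± 0.08 and the gamma-secretase subunit Psenen -0.09 ± 0.01. None of these genes passed the limma test.

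Of the 5 enzymes that glycosylate the receptor, all were tested, with a median of -0.04, 0 higher and 1 lower on all 4 arrays. The latter was Poglut1, which adds O-glucose to the EGF repeats of Notch. Its levels were 8.57 and 8.59 in Atg7F/F and 9.54 and 9.15 in Atg7+/+, so the genotypes did not overlap. The ratios were -0.97 and -0.56, with a mean of -0.77 ± 0.29, which missed the threshold once adjusted (limma p 0.0107, adjusted 0.9998). The fringe enzyme Mfng had -0.12 ± 0.25, Pofut1, which adds O-fucose, -0.04 ± 0.15 and the fringe enzyme Rfng -0.02 ± 0.05.

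Of 14 genes of ubiquitination and trafficking, 13 were tested, with a median of 0.02, 1 higher and 2 lower on all 4 arrays. The ubiquitin ligase Mib1, which activates ligands, had 0.19 ± 0.06 and was higher on all 4 by its brightest probe. A second Mib1 probe above background gave 0.02, with both signs among its arrays. Dtx4, a Deltex family ubiquitin ligase, had 0.06 in replicate 1 and 1.16 in replicate 2, and its other probes gave 0.62 and 0.21 in replicate 2. Neurl1b had 0.15 ± 0.19 and Numb, an inhibitor of Notch, -0.10 ± 0.01. Of 13 nuclear partners, 8 were tested, with a median of -0.0029, 1 higher and 0 lower on all 4 arrays. The co-repressor Ncor1 had -0.16 ± 0.27, Snw1 0.10 ± 0.14 and Spen -0.08 ± 0.14. The histone deacetylase Hdac1, singled out after its values were seen, had 3.19 in replicate 1 and -3.91 in replicate 2. Rbpj itself, read by 1 probe, was not well above background in any channel. The co-activators Maml1, Maml3 and Ep300 did not pass the filter on background either, though 1 probe of Ep300 was above it in some channels.

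Among 10 other target genes, 6 were tested, with a median of -0.0015, 0 higher and 1 lower on all 4 arrays. Hes1, the most widely used Notch target, had -0.10 in replicate 1 and 0.31 in replicate 2, so its signs followed those of the Hey genes at a smaller size. The repressor Bhlhe41 was the one lower on all 4, at -0.26 ± 0.04, Bhlhe40 had 0.12 ± 0.10 and Dtx1, also counted among the ubiquitin ligases, -0.10 ± 0.26. Hes5 and Hes7 were not well above background. Over these 6 lists limma called 0 genes at an adjusted p below 0.05. An unadjusted limma p below 0.05 was found for 2 genes, Poglut1 among them, beside 2.98% of all genes tested.

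Genes listed as cell type markers also differed between the extracts, and their part in the Notch values was not tested. In bulk RNA, fewer cells of a type and less RNA per cell cannot be told apart. Endothelial markers, with 12 of 12 tested, were lower on all 4 arrays for 10 genes and had a median ratio of -0.31, with -0.17 in replicate 1 and -0.43 in replicate 2. Their summed linear signal was 6763 and 6513 in the Atg7F/F extracts and 6953 and 12877 in the Atg7+/+ extracts. Such a sum weighs bright genes most, here Emcn, singled out after its values were seen. Its levels were 11.75 and 11.46 in Atg7F/F and 11.58 and 12.80 in Atg7+/+, with ratios of 0.17 and -1.34. By count, 9 of 12 markers were highest in Atg7+/+ of replicate 2, beside 22% of all genes. Pecam1 had -0.48 ± 0.10, Vwf -0.70 ± 0.42, Cdh5 -0.37 ± 0.15 and Tie1 -0.27 ± 0.16. Notch4 shared its highest extract with most of these markers, whereas Notch3 and the Hey genes were lowest there. Dll4, the other member best known from endothelium, was also lowest there, at 6.60, but its levels overlapped between the genotypes.

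Pericyte markers, with 5 of 5 tested, had medians of -0.16 in replicate 1 and 0.33 in replicate 2, with 2 higher and 1 lower on all 4 arrays. The receptor Pdgfrb had levels of 13.10 and 13.52 in Atg7F/F and 13.27 and 12.83 in Atg7+/+ of replicates 1 and 2, the same order of extracts as Notch3, and was the 1 gene of the 5 with that order. The summed signal of the 5 was 18895 and 22902 in the Atg7F/F extracts and 21933 and 23436 in the Atg7+/+ extracts. That sum was highest in Atg7+/+ of replicate 2, yet 4 of the 5 genes were lowest there, beside 21.7% of all genes. The 1 gene highest there was Cspg4, at a level of 13.95. Rgs5 had 0.10 and 1.19, Kcnj8 0.36 and 0.33, and Cspg4 -0.27 and -0.57 in replicates 1 and 2. Adventitial fibroblast markers, with 7 of 7 tested, had medians of -0.36 and 0.50 in the 2 replicates, with 0 higher and 2 lower on all 4 arrays. Their summed signal was 7674 and 6043 in the Atg7F/F extracts and 9788 and 5882 in the Atg7+/+ extracts. Cd34 had -0.69 ± 0.46, Dpt -0.33 ± 0.34, Pdgfra 0.07 ± 0.02 and Lum -0.17 and 0.50 in the 2 replicates.

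Smooth muscle markers, with 10 of 10 tested, had medians of -0.06 and -0.17, with 1 higher and 3 lower on all 4 arrays. Their summed signal was 283779 and 214361 in the Atg7F/F extracts and 290265 and 255265 in the Atg7+/+ extracts. Acta2 had -0.17 ± 0.01, Tagln -0.23 ± 0.06, Synpo2 -0.17 ± 0.01 and Actg2 0.42 ± 0.32. Macrophage and leukocyte markers, with 4 of 7 tested, had medians of -0.24 and 0.05, with 1 higher and 2 lower on all 4 arrays. Their summed signal was 1956 and 4550 in Atg7F/F and 2576 and 3222 in Atg7+/+. Most of that sum is Lyz2, with levels of 10.45 and 11.97 in Atg7F/F and 10.95 and 11.38 in Atg7+/+. The defining Ptprc, Adgre1 and Itgam were not well above background. Cd68 had -0.37 ± 0.09, Csf1r 0.16 ± 0.10 and Cd14 -0.09 ± 0.07, while Lyz2 had -0.50 and 0.58 in replicates 1 and 2.

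**Figure D4:**
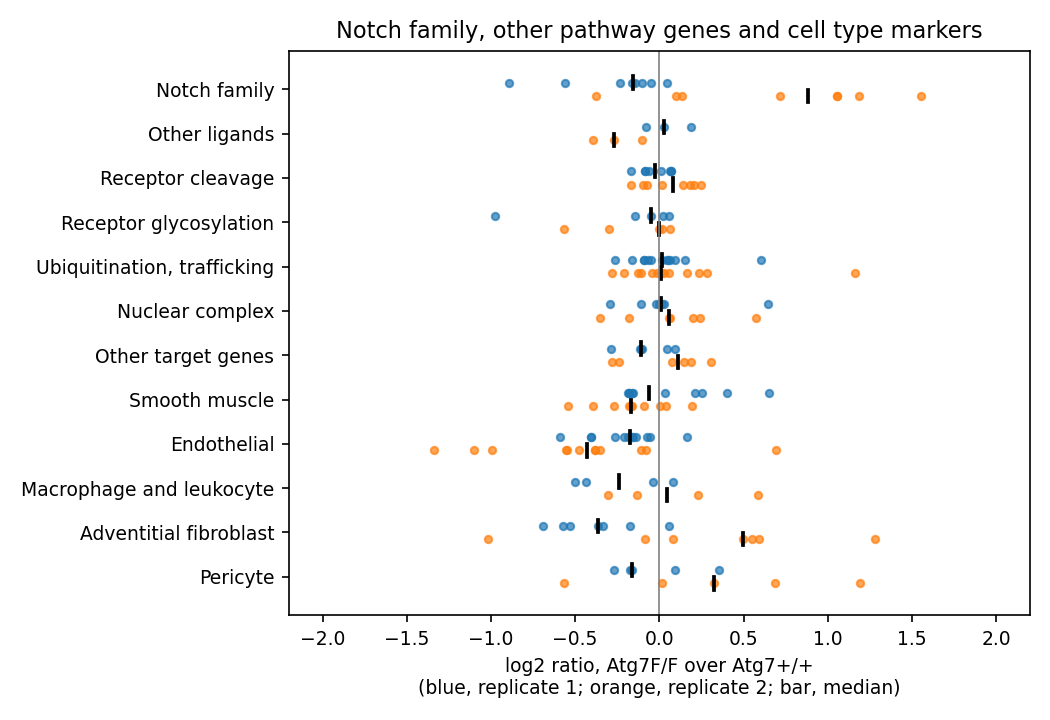
Log2 ratio of Atg7F/F over Atg7+/+ (horizontal axis) for each gene of the Notch family, of 6 lists of other pathway genes and of 5 lists of cell type markers, with replicate 1 in blue, replicate 2 in orange and the median as a black bar, with the 2 values of Hdac1 outside the axis. The medians of the Notch family are -0.15 and 0.89 in replicates 1 and 2, while those of the endothelial markers are below 0 in both.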

How the data were processed

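Total RNA was amplified, labelled with Cy3 or Cy5 and hybridised to Agilent 2-colour arrays, per the labels' protocols. The deposited scanner files hold mean spot intensity and local background intensity, and the submitters' processing notes name Agilent Feature Extraction 10.1.1.1 as the software. Per the file headers, processed intensities and a log10 ratio (Cy5 to Cy3) stand beside them. The authors' deposited value table holds log2 ratios, which equalled Atg7F/F over Atg7+/+ of the processed signals within 0.001 for 100% of probes on each array, so scale and direction are settled, and the column medians of 0.20, -0.094, 0.081 and -0.037 show no centring. Coordinates of spots are on mm9, for which no annotation was used here, so exons are not stated.

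Here, intensities were background-corrected (limma 3.58.1, normexp, offset 50, which pulls dim ratios towards 0) and loess-normalized with control spots at weight 0. Dye-swapped arrays were averaged, which left 2 ratios per gene. Kept were 17109 of 41174 probes, those without outlier flag and well above background in at least 1 genotype on all 4 arrays, and the brightest stood for each of 12367 genes. Names came from RefSeq accessions for 25173 probes. Ratios were tested against 0 with lmFit and eBayes (3.18 degrees of freedom, two-sided) and adjusted by Benjamini-Hochberg over all genes. Single-channel levels were taken after Aquantile scaling. All 4 arrays were on 1 slide scanned on 1 day. Pairing of replicate numbers comes from the hybridisation, and deviations of same-numbered extracts correlated at 0.178 across genes. The rule named all 10 members, Atg7, and up to 4 genes per list by smallest p, of which 1 is not reported here. The members, lists and tests were chosen with earlier results of these data known. The code was tested on simulated data of the 12367 genes: with little spread it recovered 100% of genes changed by 1 log2 unit, and with the spread of these arrays 0% of those and 30% of genes changed by 2.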

Additional observations from a re-analysis of the deposited data

How the results depend on the processing

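No Notch gene was called under any of the 13 settings with a test, the reported one included. The smallest adjusted p was 0.531, for Hey2 with the 4 arrays taken as independent, and the largest was 1 over these settings. Across all alternatives and Notch genes, 103 ratios kept their sign and, where a test was possible, their side of the threshold. The other 9 changed sign, 8 of them on leaving out a replicate. Settings that change only the filter or the test left each ratio as it was, so no sign could change there. The deposited table repeats the processed signals. Since the 2 replicates of each of the 8 genes had opposite signs, leaving out 1 or the other had to change the sign once. Leaving out replicate 1 or 2 gave -0.56 to 1.56 for Notch3, -0.24 to 1.19 for Hey1, -0.049 to 1.05 for Hey2, -0.16 to 1.05 for Heyl, -0.89 to 0.72 for Jag1, -0.37 to 0.046 for Notch4, -0.14 to 0.10 for Notch2 and -0.10 to 0.14 for Dll4. Median centring turned Notch2 from -0.023 to 0.027, and the cause was not tested. Over the whole array limma called 0 genes, but 9 with the pair of arrays as a random block, 25 with 4 independent arrays and 1 with no replicate block, where the smallest adjusted p of a Notch gene was 0.9999. The first 2 of these treat the dye-swapped repeats as further observations. Leaving out a replicate leaves no spread to test, so no count of calls exists there. The number of genes with one sign on all 4 arrays stayed at 0 of the 8 with no offset, no background subtraction, processed signals, the deposited table, median centring and the other filters. With processed signals the median of the endothelial markers was -0.64, that of the nuclear partners -0.07 and that of the ubiquitination genes -0.0041, a change of sign for the last. Signal over background limits Dll4, and it allows no ratio for Notch1 and Jag2.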
